A study of Mus musculus with 8 samples.

Results

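The genes described here are the receiving and sending apparatus of Wnt signalling at the cell surface: the Wnt ligands, the Frizzled receptors, their co-receptors, the 2 secretion factors Porcn and Wls, and the secreted Frizzled-related proteins (Sfrp). They were chosen by name. Of 41 listed names, 40 had an entry among the 39179 genes of the deposited count files: 19 ligands, 10 Frizzled receptors, 5 co-receptors, 2 secretion factors and 4 Sfrp genes. The remaining name, Gpr177, is an older symbol of Wls.

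RNA was sequenced from 4 mouse pancreatic ductal adenocarcinoma (PDAC) lines of the iKPC model, numbered 1 to 4, each with overexpressed WT-USP21 and with overexpressed ED-USP21, which gave 8 libraries and 4 per construct. USP21 is a deubiquitinating enzyme, and ED is not spelled out in the labels. All lines carry a tetO-driven transgene together with ROSA_rtTA and p48-Cre: rtTA, which activates tetO, is expressed from the ROSA locus, and Cre is driven by p48, a pancreatic gene. The background is FVB/C57Bl6 in lines 1 and 2 and C57BL/6 in lines 3 and 4. Doxycycline state, passage and whether a line is a single clone are not given in the sources used here. Libraries of parental cells were not analysed here, so differences are between the constructs and not from the parental lines. Separate lines were the replicates, and p-values measure the spread between these lines.

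Wnt ligands are lipid-modified secreted proteins. Porcn attaches the lipid and Wls carries the ligand to the cell surface. A ligand that bridges a Frizzled receptor and Lrp5 or Lrp6 halts the breakdown of beta-catenin, which then drives transcription with TCF/LEF factors, whereas Ror1, Ror2 and Ryk take part in branches of the pathway that do not need beta-catenin. Sfrp proteins bind ligands outside the cell. In pancreatic cancer the pathway is known for the differing need of tumour cells for ligands made by themselves or by neighbouring cells.

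Gene counts per library ran from 72828184 to 107551210, and levels are given in CPM, that is, gene counts scaled to a common library total after TMM normalisation. Usp21 itself stood at 147 to 944 CPM with WT-USP21 and at 1657 to 3132 CPM with ED-USP21. The WT-USP21 library was the lower one in 4 of 4 lines (mean log2 difference -2.10, SD 0.94, n = 4, exact 2-sided sign-flip test p = 0.125, the smallest that 16 sign patterns allow). The construct comparison is therefore one of Usp21 form and amount together. Line 1 stood apart from the other lines: after the group mean was subtracted, its libraries correlated across genes at -0.45 to -0.59 with libraries of the other construct from lines 2 to 4. Lines 2 and 4 resembled each other across constructs (0.43 and 0.364), about as much as the libraries of line 4 did (0.347), and line 3 reached 0.242 to 0.347 against either of them. The subtracted mean includes line 1, so a line 1 that stands apart by itself raises the correlations among lines 2 to 4. These correlations therefore cannot decide whether lines 2 to 4 are independent, and their independence is not shown. The keratins Krt8, Krt18, Krt19 and Krt7 were abundant in every library (960 to 4079 CPM), and Cdh1 stood at 289 to 544 CPM, whereas the epithelial marker Epcam was low (0.0645 to 5.34 CPM). In lines 2 to 4 Krt19 stood at 960 to 1141 CPM with WT-USP21 and 1454 to 1715 CPM with ED-USP21. Cdh1 stood there at 289 to 373 and 418 to 476 CPM. Krt8 and Krt7 were slightly lower with WT-USP21 in those lines, and Krt18 and Epcam went both ways. In line 1 Krt19, Cdh1, Krt8 and Krt7 were higher with WT-USP21. Fibroblast markers summed to 7.41 to 16.01 CPM with WT-USP21 and to 5.71 to 8.59 CPM with ED-USP21 over 9 genes, with Dcn, Lum and Thy1 at 0 in all libraries. Endothelial markers summed to 2.43 to 7.61 and to 0.664 to 1.01 CPM over 6 genes. That difference lay mostly in Kdr in lines 2 to 4 and in Cdh5 in line 1, while Pecam1 did not exceed 0.147 CPM. Leukocyte markers summed to 6.14 to 13.2 and to 5.12 to 16.2 CPM over 6 genes, mostly Cd68, and acinar markers (5 genes) did not exceed 0.0465 CPM in sum. The part of other cell types in the results was not tested. In bulk RNA, fewer expressing cells and less RNA per cell cannot be told apart.

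Promoter sequence is shown for Wnt9a, Wnt7a and Wnt4, the ligands in the promoter table that DESeq2 called between the constructs (values below). Each stretch is the 250 bases before the transcription start in RefSeq (build GRCm38.p6), on the strand of the gene, with any CACGTG (an E-box) or CTTTGA (the core of the TCF/LEF site) in capitals. Wnt9a is at chr11:59306680-59306929 (plus strand), Wnt7a at chr6:91411354-91411603 (minus strand) and Wnt4 at chr4:137277385-137277634 (plus strand). The counts were made on an earlier build (mm9), so no coordinates of theirs are given.
Wnt9a: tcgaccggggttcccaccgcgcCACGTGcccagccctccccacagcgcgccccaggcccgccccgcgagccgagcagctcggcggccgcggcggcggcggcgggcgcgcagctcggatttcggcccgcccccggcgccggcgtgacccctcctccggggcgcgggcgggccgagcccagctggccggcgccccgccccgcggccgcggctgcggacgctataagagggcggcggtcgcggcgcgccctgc
Wnt7a: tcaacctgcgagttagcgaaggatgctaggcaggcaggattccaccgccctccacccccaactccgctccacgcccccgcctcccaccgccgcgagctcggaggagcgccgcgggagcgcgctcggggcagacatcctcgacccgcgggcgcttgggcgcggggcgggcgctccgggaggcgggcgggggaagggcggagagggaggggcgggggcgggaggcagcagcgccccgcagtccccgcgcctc
Wnt4: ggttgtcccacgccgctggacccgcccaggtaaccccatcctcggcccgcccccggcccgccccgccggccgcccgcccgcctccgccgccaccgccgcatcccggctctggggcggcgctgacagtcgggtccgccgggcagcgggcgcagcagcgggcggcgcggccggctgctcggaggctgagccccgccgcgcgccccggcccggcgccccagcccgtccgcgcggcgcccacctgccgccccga

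All 3 stretches are rich in G and C, at 84.4% for Wnt9a, 77.6% for Wnt7a and 85.2% for Wnt4, against a median of 52.4% over all 32851 promoters of the table. Both motifs were searched on both strands in the same window. CTTTGA was in none of the 3 and in 4 of the 30 promoters that the table holds for 27 members (13.3%), against 13.8% of all promoters. The 4 were promoters of Fzd1, Ror1, Wnt11 and Wnt5b. CACGTG was in 2 of 30 (6.67%, Wnt9a and Fzd9), against 6.02% of all promoters, and in Wnt9a it began 228 bases before the start. The shares among members were thus near those of all promoters.

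Of the 40 members, 20 were expressed, taken as a mean of at least 1 CPM with either construct, and 27 had enough reads to be tested. The filter on low counts removed 8 members (Wnt3, Wnt5b, Wnt6, Wnt8a, Wnt8b, Wnt11, Sfrp2 and Sfrp5). A further 5 had 3 reads or fewer over the 8 libraries (Wnt1, Wnt2, Wnt3a, Wnt9b and Fzd10). The ligand family was the least expressed of the large ones, with 6 of 19 genes, beside 7 of 10 Frizzled receptors, 5 of 5 co-receptors, 2 of 2 secretion factors and 0 of 4 Sfrp genes. The expressed ligands were Wnt4, Wnt5a, Wnt7a, Wnt7b, Wnt9a and Wnt10a. Wnt5a and Wnt9a reached a mean of 1 CPM with WT-USP21 only, with ED-USP21 means of 0.812 and 0.694 CPM. Divided by exon length, the highest levels were those of Porcn (42.3 CPM per kb of exon with WT-USP21 and 41.2 with ED-USP21), Lrp5 (35.5 and 38.9) and Ryk (27.6 and 28.3). Wnt7b had the highest mean of the ligands on that scale, at 19.0 and 11.2 CPM per kb. That rank rested on line 1: Wnt7a was above Wnt7b in each library of lines 2 to 4 except the WT-USP21 library of line 2. All tested members passed the filter with libraries of both constructs, none through 1 construct alone.

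**Figure D1:**
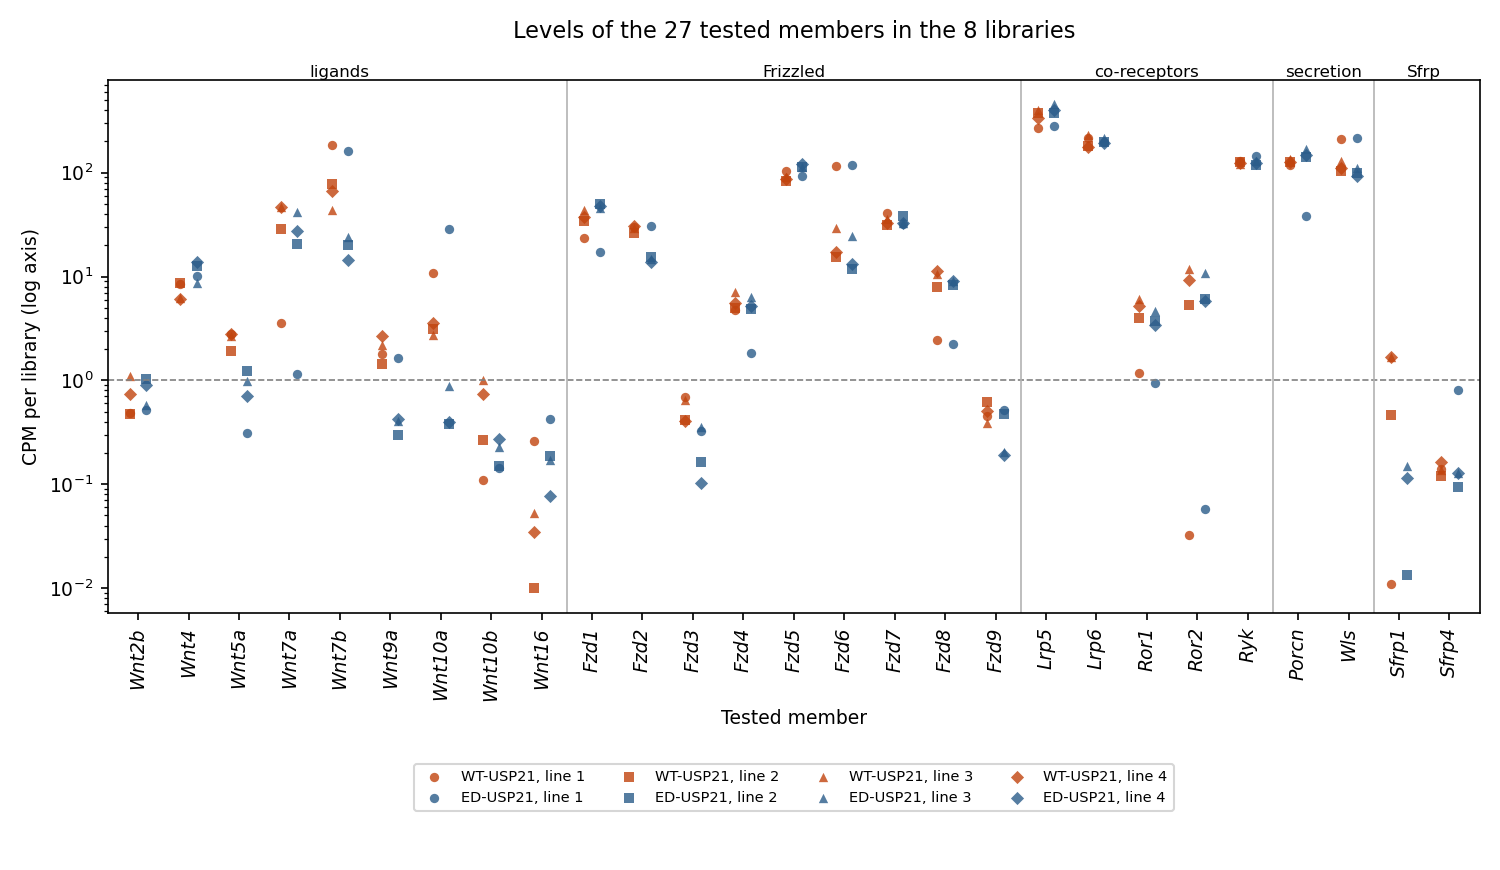
CPM of each of the 27 tested members in the 8 libraries on a log axis, in red for WT-USP21 and in blue for ED-USP21, with a marker shape per line and a dashed line at 1 CPM. The ED-USP21 library of line 1 had 0 reads of Sfrp1 and has no point there. Ror2 spans from 0.0326 CPM in line 1 to 11.8 CPM in line 3.

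In edgeR's quasi-likelihood test with the line as a block, 0 of the 27 tested members were called between the constructs at a Benjamini-Hochberg adjusted p under 0.05. The same test called 4 of 16192 genes higher with WT-USP21 (0.0247%) and 0 lower (0.0%). At an unadjusted p under 0.05 it had 12 of 27 members, beside 8.28% of all genes. The median log2 difference of the 27 (WT-USP21 minus ED-USP21) was 0.22, with 18 positive and 9 negative, where all genes tested had a median of -0.00 with 7888 positive and 8304 negative. By line the median of the members was 0.12, 0.09, 0.23 and 0.34 in lines 1 to 4. Among the families the ligands had a median of 1.09 (9 tested), the Frizzled receptors 0.24 (9), the co-receptors -0.01 (5), the secretion factors 0.18 (2) and the Sfrp genes 1.67 (2). By line the ligand median was -0.08, 0.61, 0.89 and 1.37 in lines 1 to 4, so line 1 had no ligand rise. The 2 Sfrp genes went opposite ways, with Sfrp1 at 3.86 and Sfrp4 at -0.51.

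Other tests of the same question made calls. DESeq2 with the block called 5 members higher with WT-USP21 (Wnt5a, Wnt7a, Wnt9a, Fzd2 and Sfrp1), where it called 2.02% of all genes higher, and 1 lower (Wnt4), where it called 0.591% lower. Without line 1, edgeR called 6 of 26 members higher (Wnt7b, Wnt9a, Wnt10a, Fzd2, Fzd6 and Sfrp1), beside 2.51% of all genes, and 1 lower (Fzd5), beside 2.06%. Leaving out line 2, line 3 or line 4 in place of line 1 left 0 members called. Line 1 was already known to stand apart, so its omission is not an independent choice. Wnt9a, Fzd2 and Sfrp1 were called in both. Direction was alike in 4 of 4 lines for 8 members that were higher with WT-USP21 (Wnt5a, Wnt7a, Wnt7b, Wnt9a, Fzd3, Fzd4, Ror1 and Sfrp1) and for 3 that were lower (Wnt4, Wnt16 and Lrp5), beside 9.02% and 7.73% of all genes. For Sfrp1 the direction in line 1 rested on 1 read against 0. In line 2 the gaps of Fzd4 and Lrp5 were 1.02-fold each. The 4 WT-USP21 libraries lay wholly above the 4 ED-USP21 libraries for Wnt5a and Fzd3 and wholly below them for no tested member, beside 1.07% and 0.71% of all genes.

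**Figure D2:**
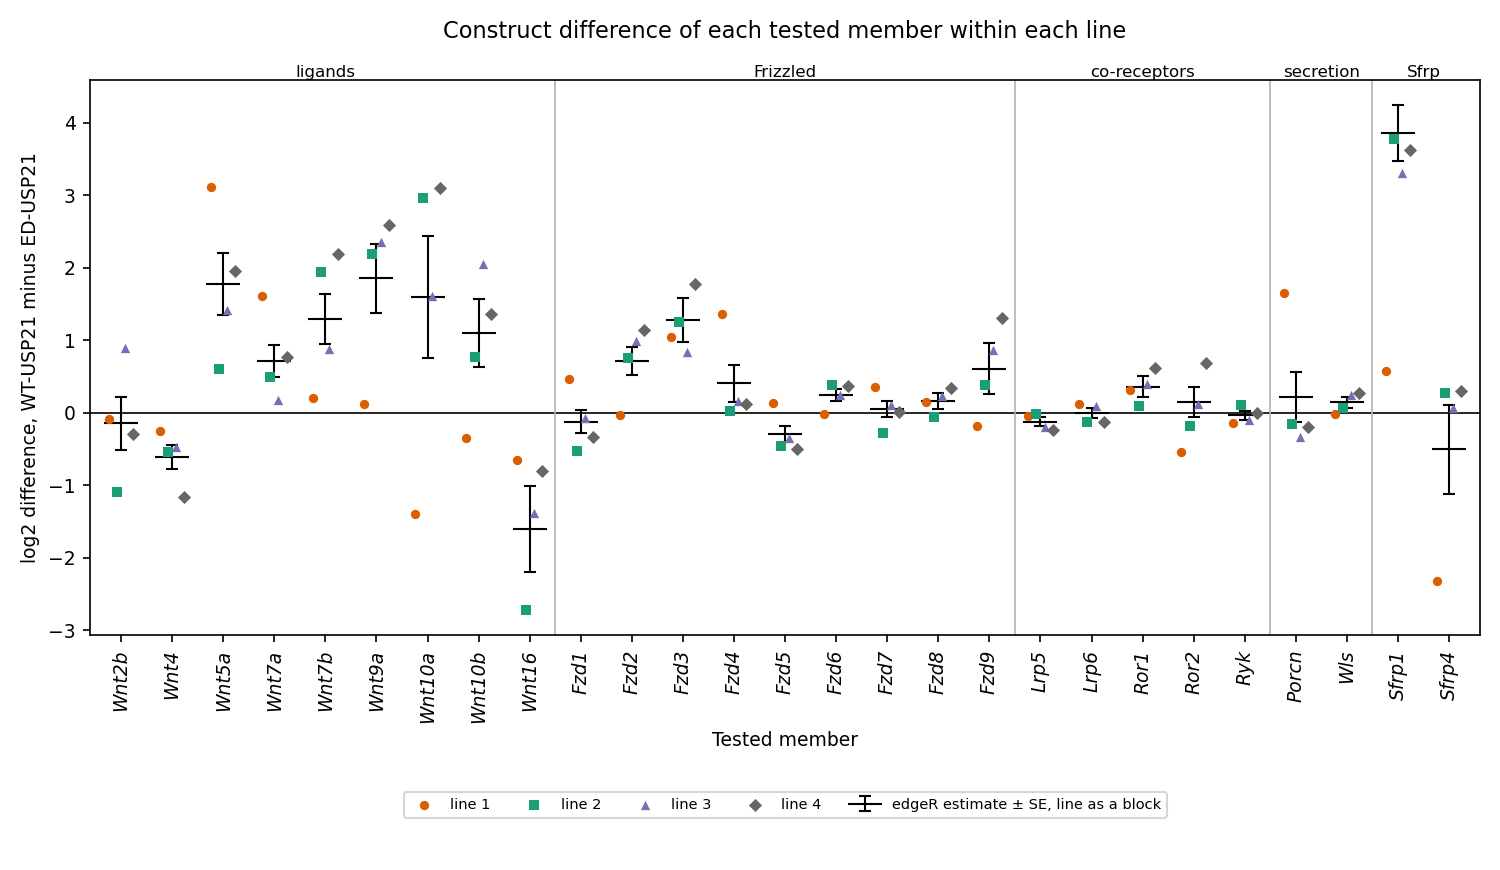
Log2 difference of each tested member, WT-USP21 minus ED-USP21, with a coloured point per line and a black bar for the edgeR estimate with its SE. Points above 0 are higher with WT-USP21. Wnt9a, Wnt10a, Fzd2 and Sfrp1 have the point of line 1 below the other 3, and Wnt5a, Wnt7a, Fzd4 and Porcn have it above them.

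Among the ligands, Wnt5a (ENSMUSG00000021994), a ligand of the branches that do not need beta-catenin, stood at 2.83, 1.91, 2.69 and 2.81 CPM with WT-USP21 in lines 1 to 4 and at 0.308, 1.24, 0.989 and 0.708 CPM with ED-USP21. Each WT-USP21 library was above each ED-USP21 library, with the widest gap in line 1 (9.17-fold) and the narrowest in line 2 (1.53-fold). The log2 difference was 1.78 (SE 0.43), with an edgeR adjusted p of 0.320 and a DESeq2 adjusted p of 0.00335. Without line 1 the edgeR adjusted p was 0.0641. The fibroblast marker sums given above also leaned to WT-USP21, with ranges that overlapped. In line 1, where the Wnt5a gap was widest, the 4 tested markers went both ways between WT-USP21 and ED-USP21. Col1a1 stood there at 2.618 and 3.389 CPM, Col1a2 at 1.021 and 1.097, Pdgfra at 3.607 and 3.35, and Acta2 at 0.9343 and 0.3466. In line 4 Col1a2 stood at 5.33 and 0 CPM. A link of Wnt5a to these markers was not tested.

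Wnt9a (ENSMUSG00000000126), known for its part in blood stem cell formation, stood at 1.79, 1.43, 2.17 and 2.66 CPM with WT-USP21 and at 1.65, 0.297, 0.408 and 0.425 CPM with ED-USP21. The ED-USP21 library of line 1 was as high as WT-USP21 libraries, and the other ED-USP21 libraries were all low. Within lines WT-USP21 exceeded ED-USP21 1.09-fold in line 1 and 4.81- to 6.26-fold in lines 2 to 4. EdgeR put the log2 difference at 1.85 (SE 0.48, edgeR adjusted p = 0.363), and 2.45 (SE 0.24, edgeR adjusted p = 0.00892) without line 1.

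Wnt7b and Wnt7a are close relatives that signal through Frizzled with the help of the membrane proteins Reck and Gpr124. Wnt7b (ENSMUSG00000022382) stood at 185, 77.6, 43.7 and 65.9 CPM with WT-USP21 and at 161, 20.3, 23.9 and 14.4 CPM with ED-USP21. It was high in both libraries of line 1, and in lines 2 to 4 each WT-USP21 library was above each ED-USP21 library. The edgeR fit gave a log2 difference of 1.3 (SE 0.35, adjusted p = 0.370), and 1.67 (SE 0.24, edgeR adjusted p = 0.0201) without line 1. DESeq2 with all lines gave Wnt7b an adjusted p of 0.137. Wnt7a (ENSMUSG00000030093) ran the other way between lines, at 3.55, 28.8, 47.0 and 46.3 CPM with WT-USP21 and 1.15, 20.6, 41.8 and 27.2 CPM with ED-USP21. It was low in both libraries of line 1 and higher with WT-USP21 within each line, although the groups overlapped. The log2 difference was 0.71 (SE 0.22), with an edgeR adjusted p of 0.447 and a DESeq2 adjusted p of 0.0415. Without line 1 the edgeR adjusted p was 0.0717.

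Wnt4 (ENSMUSG00000036856), needed for kidney and female reproductive tract development, was the expressed ligand that leaned to ED-USP21 in every line. Its WT-USP21 libraries held 8.55, 8.58, 6.15 and 6.08 CPM and its ED-USP21 libraries 10.2, 12.5, 8.57 and 13.7 CPM. Only the ED-USP21 library of line 3 dipped into the WT-USP21 range. For the constructs the log2 difference was -0.61 (SE 0.16), with an edgeR adjusted p of 0.376 and a DESeq2 adjusted p of 0.0377. Without line 1 the edgeR adjusted p was 0.0574.

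Wnt10a (ENSMUSG00000026167), a ligand needed in teeth and skin appendages, was chosen after its values were seen, because line 1 went against the other lines. It stood at 10.9, 3.11, 2.74 and 3.59 CPM with WT-USP21 and at 28.6, 0.378, 0.882 and 0.399 CPM with ED-USP21. In line 1 it was 2.63-fold higher with ED-USP21, and in lines 2 to 4 it was 8.22-, 3.11- and 8.99-fold higher with WT-USP21. The edgeR log2 difference was 1.59 (SE 0.84, adjusted p = 0.702) with the block, -0.58 without it, and 2.58 (SE 0.35, adjusted p = 0.0174) without line 1. DESeq2 with the block and all lines gave Wnt10a an adjusted p of 0.468.

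Wnt16 (ENSMUSG00000029671), a ligand known from bone, was tested but far below 1 CPM. Its WT-USP21 libraries of lines 1 to 4 held 24, 1, 5 and 3 reads and the ED-USP21 ones 44, 14, 16 and 6. Each line had more with ED-USP21, and line 1 the most with either construct. Scaled to library totals, the ratio of WT-USP21 to ED-USP21 reads was 0.384 (exact binomial 95% interval 0.248 to 0.583). It ran from 0.217 without line 1 to 0.487 without line 2. The edgeR log2 difference was -1.61 (SE 0.59, adjusted p = 0.550). Intervals on reads cover counting error only, not the spread between lines.

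The other tested ligands were low. Wnt10b stood at 0.109 to 1.01 CPM with WT-USP21 and 0.144 to 0.270 with ED-USP21 (log2 1.09, SE 0.47, edgeR adjusted p = 0.620). Wnt2b lay between 0.476 and 1.09 CPM in all libraries (log2 -0.15, SE 0.37, edgeR adjusted p = 0.955). Of those that could not be tested, Wnt3 had 23 reads in WT-USP21 against 6 in ED-USP21 libraries, a scaled ratio of 3.57 (1.41 to 10.7), which ran from 2.41 without line 2 to 5.49 without line 1. Wnt5b, a close relative of Wnt5a, had 38 and 8, a ratio of 4.43 (2.03 to 10.98), which ran from 3.14 without line 3 to 7.16 without line 1. These intervals lie above 1 for counting error, with 1 to 14 reads per library. Wnt6, Wnt8a, Wnt8b and Wnt11 had between 5 and 18 reads each in all.

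**Figure D3:**
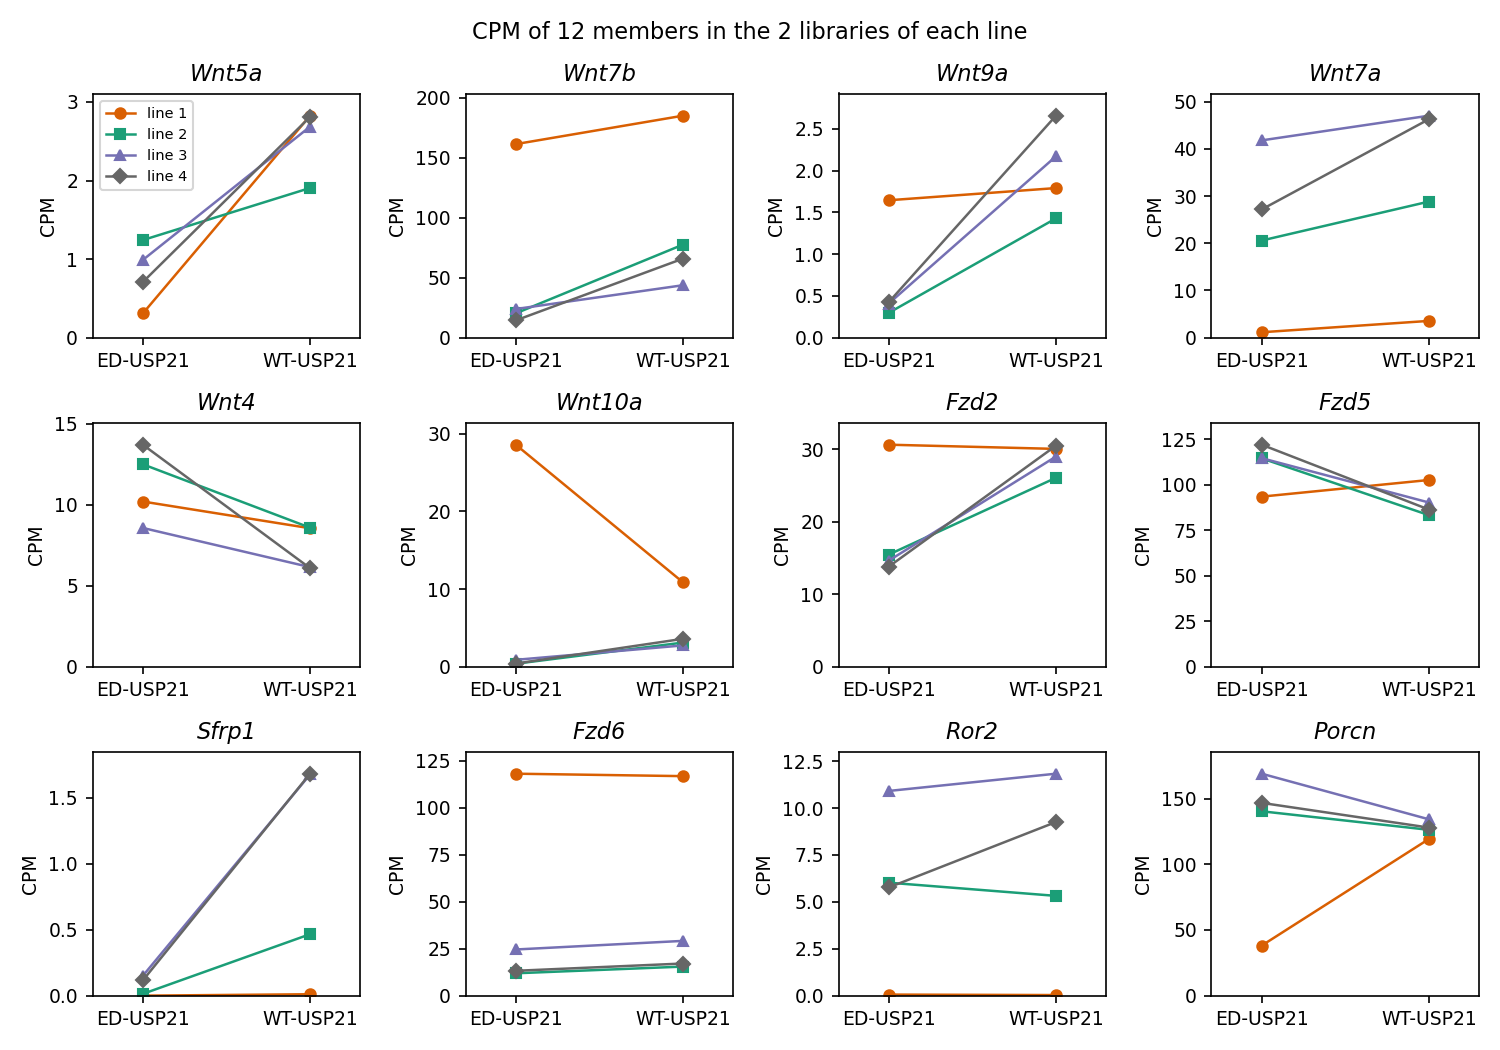
CPM of 12 members in the ED-USP21 (left) and WT-USP21 (right) library of each line, joined by a line per cell line; each panel has its own axis from 0. In the panels of Wnt9a and Fzd2 the 3 lines other than line 1 climb from ED-USP21 to WT-USP21 while line 1 is nearly level, and in that of Wnt10a line 1 slopes down.

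Among the Frizzled receptors, Fzd2 (ENSMUSG00000050288), a receptor for Wnt5a among other ligands, stood at 30.1, 26.1, 29.0 and 30.5 CPM with WT-USP21 and at 30.6, 15.5, 14.6 and 13.8 CPM with ED-USP21. The ED-USP21 library of line 1 was as high as the WT-USP21 libraries, and the other 3 ED-USP21 libraries lay close together below them. The log2 difference was 0.71 (SE 0.20, edgeR adjusted p = 0.384), and 0.97 (SE 0.09, edgeR adjusted p = 0.0084) without line 1. With DESeq2 and all lines the adjusted p was 0.0229.

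Fzd5 (ENSMUSG00000045005) is the receptor on which human pancreatic cancer cells without working RNF43 are known to rely. It stood at 103, 83.3, 90.2 and 86.3 CPM with WT-USP21 and at 93.5, 114, 115 and 122 CPM with ED-USP21. In lines 2 to 4 each ED-USP21 library was above each WT-USP21 library, and in line 1 the order was the other way. Over all lines the edgeR estimate on the log2 scale was -0.29 (SE 0.11, adjusted p = 0.572), and -0.43 (SE 0.06, edgeR adjusted p = 0.0182) without line 1. DESeq2 with all lines gave Fzd5 an adjusted p of 0.367.

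Fzd6 (ENSMUSG00000022297), known for planar cell polarity and the orientation of hair, differed far more by line than by construct. Its level was 117, 15.5, 29.2 and 17.1 CPM with WT-USP21 and 118, 11.9, 24.6 and 13.2 CPM with ED-USP21. Both libraries of line 1 were far above the rest, and the constructs were level within line 1. The log2 difference between constructs was 0.24 (SE 0.08, edgeR adjusted p = 0.513), and 0.33 (SE 0.07, edgeR adjusted p = 0.0473) without line 1. DESeq2 with all lines gave Fzd6 an adjusted p of 0.326.

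Fzd3 (ENSMUSG00000007989), a receptor of axon guidance, was low but did not overlap between the constructs. It stood at 0.695, 0.417, 0.650 and 0.406 CPM with WT-USP21 and at 0.327, 0.162, 0.355 and 0.103 CPM with ED-USP21. The lowest WT-USP21 value, in line 4, was close above the highest ED-USP21 value, in line 3, and all were under 1 CPM. Its log2 difference was 1.28 (SE 0.31, edgeR adjusted p = 0.314).

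The remaining Frizzled receptors did not pass in edgeR with or without line 1. Fzd4, which also serves as the receptor of Norrin, stood at 4.77 to 7.05 CPM in 7 libraries and at 1.84 CPM in the ED-USP21 library of line 1 (log2 0.41, SE 0.25, edgeR adjusted p = 0.758). Fzd7 lay between 31.3 and 40.7 CPM in all libraries (log2 0.05, SE 0.11). Fzd1 had a log2 difference of -0.12 (SE 0.16), Fzd8 one of 0.17 (SE 0.11) and Fzd9, at 0.193 to 0.625 CPM, one of 0.61 (SE 0.35).

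None of the 5 co-receptors was called by edgeR, with or without line 1. Lrp5 (ENSMUSG00000024913), one of the pair of beta-catenin branch co-receptors, stood at 271, 372, 400 and 339 CPM with WT-USP21 and at 278, 379, 457 and 402 CPM with ED-USP21. The ED-USP21 library was the higher in each line, by 1.02- to 1.18-fold, and the groups overlapped. The log2 difference was -0.13 (SE 0.06, edgeR adjusted p = 0.691). Lrp6, the other of the pair, stood at 177 to 230 CPM with WT-USP21 and 193 to 215 CPM with ED-USP21 (log2 -0.01, SE 0.07). Ryk, a Wnt-binding receptor with an inactive kinase domain, stood at 120 to 130 and 117 to 143 CPM (log2 -0.04, SE 0.06).

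Ror1 (ENSMUSG00000035305), a receptor tyrosine kinase-like protein that binds Wnt5a, stood at 1.17, 4.01, 6.12 and 5.24 CPM with WT-USP21 and at 0.943, 3.75, 4.63 and 3.40 CPM with ED-USP21. Line 1 was low with both constructs, and WT-USP21 was slightly the higher in each line. Its log2 difference was 0.36 (SE 0.15, edgeR adjusted p = 0.603). Ror2 (ENSMUSG00000021464), its relative, was chosen after its values were seen. It stood at 0.0326, 5.32, 11.8 and 9.25 CPM with WT-USP21 and at 0.0578, 6.02, 10.9 and 5.77 CPM with ED-USP21. Line 1 held 3 and 6 reads, whereas the other libraries held 446 to 1128. Between constructs its log2 difference was 0.14 (SE 0.21, edgeR adjusted p = 0.912).

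Of the secretion factors, Wls (ENSMUSG00000028173) stood at 212, 103, 131 and 111 CPM with WT-USP21 and at 215, 98.7, 110 and 92.1 CPM with ED-USP21. Both libraries of line 1 were the highest, and the groups overlapped (log2 0.14, SE 0.07, edgeR adjusted p = 0.684). Porcn (ENSMUSG00000031169), chosen after its values were seen, stood at 119, 126, 134 and 128 CPM with WT-USP21 and at 38.1, 140, 169 and 147 CPM with ED-USP21. The ED-USP21 library of line 1 was far below the other 7. Within line 1 Porcn was 3.13-fold higher with WT-USP21, and in lines 2 to 4 it was 1.11- to 1.26-fold higher with ED-USP21. The edgeR log2 difference was 0.22 (SE 0.34, adjusted p = 0.924), and -0.22 (SE 0.06, adjusted p = 0.102) without line 1.

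Sfrp1 (ENSMUSG00000031548), a secreted Wnt-binding protein, had the smallest p of the members. It stood at 0.0109, 0.466, 1.68 and 1.68 CPM with WT-USP21 and at 0, 0.0135, 0.151 and 0.116 CPM with ED-USP21. Reads were 1, 47, 160 and 145 against 0, 1, 14 and 9, so lines 2 to 4 each had far more with WT-USP21, lines 3 and 4 held most of the reads, and line 1 had next to none. Over all lines 353 reads stood against 24, a ratio scaled to library totals of 13.7 (95% interval 9.06 to 21.7), with 12.7 to 17.7 when a line was left out. The edgeR log2 difference was 3.86 (SE 0.39, adjusted p = 0.0695), and 3.85 (SE 0.39, adjusted p = 0.00892) without line 1. Sfrp4 stood at 0.0945 to 0.163 CPM in 7 libraries and at 0.799 CPM in the ED-USP21 library of line 1 (log2 -0.51, SE 0.61, edgeR adjusted p = 0.894). Without line 1 the direction turned (log2 0.25, SE 0.49, edgeR adjusted p = 0.858). Sfrp5 had 27 and 15 reads (ratio 1.68, 95% interval 0.861 to 3.39), and Sfrp2 had 9 reads, all from WT-USP21 libraries.

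Members also differed between lines, as the joint edgeR test of the line terms showed. That test called 10 of 27 members (37.0%), beside 24.8% of all genes: Wnt7a, Wnt7b, Fzd1, Fzd6, Fzd8, Lrp5, Ror1, Ror2, Wls and Sfrp1. Without line 1 it called 1 of 26 (Fzd6), beside 0.398% of all genes. Fzd6 was 6.33-fold higher in line 1 than in the mean of lines 2 to 4 (edgeR adjusted p = 0.000227). Wnt7b was 4.23-fold higher there (adjusted p = 0.0209 in edgeR) and Wls 1.98-fold (0.00253). Lower in line 1 were Wnt7a, by 15.0-fold (edgeR adjusted p = 0.00298), Ror1, by 4.27-fold (0.00471), and Fzd8, by 3.99-fold (0.00224). Fzd8 stood at 2.23 and 2.47 CPM in line 1 and at 8.01 to 11.4 CPM elsewhere. Fzd1 and Lrp5 were 2.12- and 1.43-fold lower in line 1 (edgeR adjusted p = 0.0426 and 0.0182). Ror2 had an edgeR adjusted p of 0.000818. Each line has 2 libraries with different constructs, so these p-values refer to these libraries. They come from the joint test of the line terms, not from a test of line 1 against lines 2 to 4.

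An interaction term asked if the effect of the construct differed by background label. EdgeR called 0 of 27 members, beside 0.0% of all genes, with 0 members and 375 of 16192 genes at an unadjusted p under 0.05. DESeq2 called 7 genes, of which 0 were members. Lines 1 and 2 share a label but differed widely in the levels of Wnt7a, Wnt10a, Fzd6 and Ror2. The line block takes up such level differences, so they do not bear on the interaction test. The log2 construct differences in lines 1 and 2 were 1.61 and 0.49 for Wnt7a and -1.39 and 2.97 for Wnt10a. They were -0.02 and 0.38 for Fzd6 and -0.55 and -0.18 for Ror2.

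Taken per length of exon, ligand RNA came mostly from Wnt7b in line 1 and from Wnt7a and Wnt7b together in the other lines. These sums and shares describe RNA, with exon lengths of a later annotation, and carry no test. The 19 ligands summed to 46.5, 29.2, 28.0 and 32.6 CPM per kb with WT-USP21 in lines 1 to 4 and to 48.2, 14.4, 21.0 and 15.5 CPM per kb with ED-USP21. The sum was thus level in line 1 and lower with ED-USP21 in the other lines. Wnt7b made up 81.2%, 54.3%, 31.9% and 41.3% of the ligand sum with WT-USP21 and 68.3%, 28.8%, 23.3% and 19.0% with ED-USP21, the smaller share in each line. Wnt7a made up 2.41% and 0.749% in line 1 and, in lines 2 to 4, 31.1% to 52.9% with WT-USP21 and 45.2% to 62.9% with ED-USP21. Its share was the larger with ED-USP21 in lines 2 to 4 although its own level was not. Wnt4 made up 20.8% and 21.1% in the ED-USP21 libraries of lines 2 and 4, beside 7.01% and 4.45% with WT-USP21. Wnt10a held 24.1% of the ligand sum in the ED-USP21 library of line 1 and at most 9.47% in any other.

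The ratio of Wnt7b to Wnt7a, each per length, was 33.7 with WT-USP21 and 91.2 with ED-USP21 in line 1. In lines 2 to 4 it was 1.74, 0.602 and 0.922 with WT-USP21 and 0.638, 0.370 and 0.343 with ED-USP21. Line 1 thus went the other way from the rest in this ratio too.

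The 10 Frizzled receptors summed to 39.9 to 63.3 CPM per kb with WT-USP21 and to 45.2 to 58.4 with ED-USP21, ranges that overlapped. Line 1 had the highest sum with each. Fzd6 made up 38.4% and 42.0% of it in line 1 and 5.40% to 12.6% elsewhere. Fzd5 made up 23.1% to 39.1%, with its largest shares in the ED-USP21 libraries of lines 2 to 4. Fzd2 made up 17.8%, 16.4% and 19.1% with WT-USP21 in lines 2 to 4 and 9.22%, 8.61% and 8.34% with ED-USP21.

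**Figure D4:**
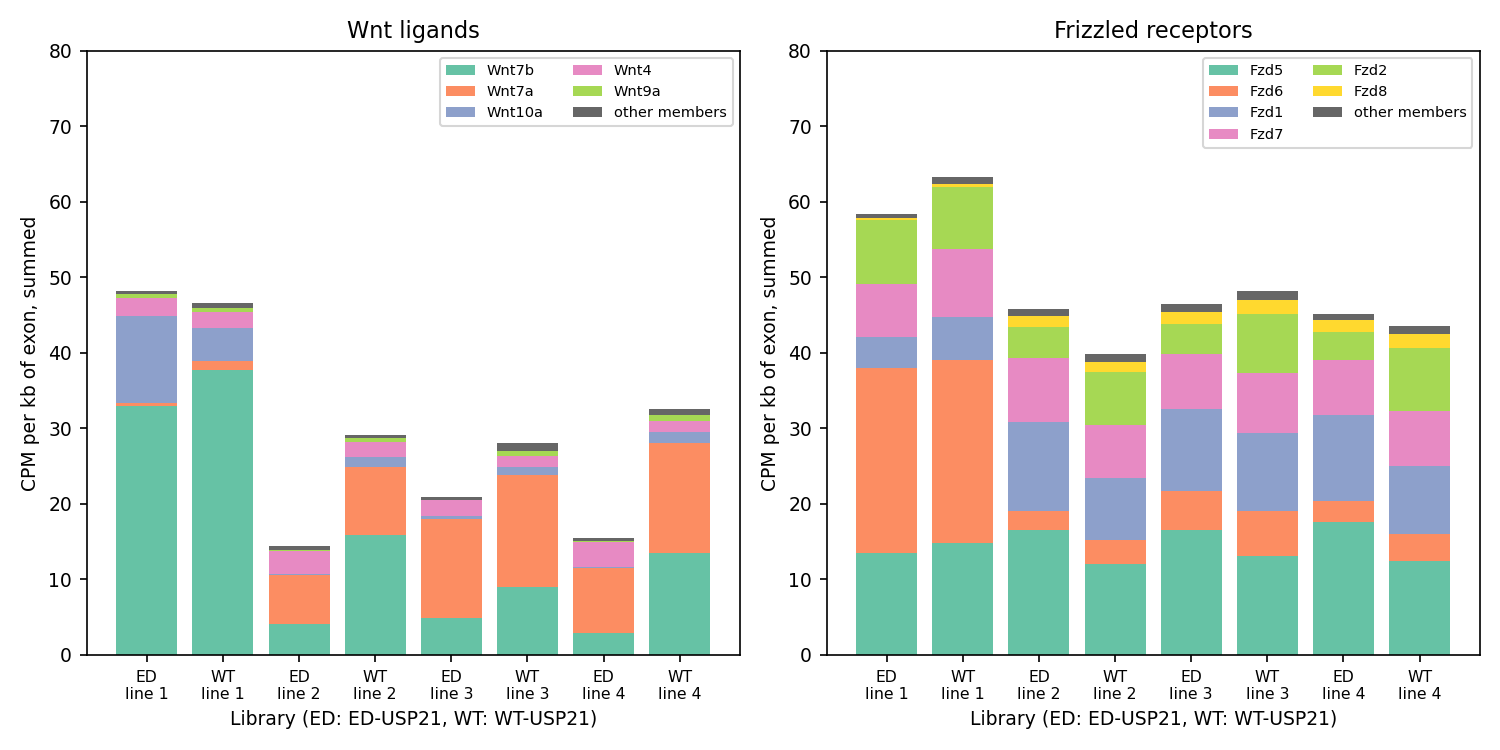
Stacked levels per kb of exon of the Wnt ligands (left) and Frizzled receptors (right) in each library, the most abundant genes by colour and the remaining ones in grey. Wnt7b and Fzd6 are the largest parts in line 1. In lines 2 to 4 Fzd5 is the largest Frizzled part, and Wnt7a is the largest ligand part except in the WT-USP21 library of line 2, where Wnt7b is (54.3%).

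Genes that act next to these members are given for comparison, from lists chosen for their place in the pathway. Of the other extracellular and membrane regulators (38 listed, 15 tested), edgeR called 0, with a median log2 difference of 0.59. Without line 1 it called 9 higher (Lgr5, Lgr6, Rnf43, Apcdd1, Tpbg, Ptk7, Igfbp4, Reck and Tspan12) and 1 lower (Lgr4). Of all genes it then called 2.51% higher and 2.06% lower. Rnf43, the ubiquitin ligase that removes Frizzled receptors from the surface, stood at 11.5, 13.9, 14.8 and 15.0 CPM with WT-USP21 and at 7.85, 9.18, 8.43 and 8.88 CPM with ED-USP21. Its groups did not overlap, as in 1.07% of all genes (log2 0.68, SE 0.09, edgeR adjusted p = 0.131). Lgr5, a receptor of R-spondins and itself a Wnt target, was read 60, 234, 172 and 219 times in the WT-USP21 libraries and 1, 4, 0 and 0 times in the ED-USP21 ones (edgeR adjusted p = 0.0705). No ED-USP21 library reached the filter minimum of 0.106 CPM for Lgr5, so it was tested through the WT-USP21 libraries alone. Tspan12, a partner of Fzd4, differed by 1.44 on the log2 scale (SE 0.30, edgeR adjusted p = 0.278), and Cthrc1, a Wnt-binding secreted protein, by 1.43 (SE 0.32, adjusted p = 0.284). Reck and Gpr124, named outside the rule for their part in Wnt7a and Wnt7b signalling, were also tested. For Reck the log2 value was 1.27 (SE 0.73, edgeR adjusted p = 0.735), and 1.93 (adjusted p = 0.0140) without line 1. For Gpr124 it was 0.22 (SE 0.12, edgeR adjusted p = 0.707).

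Inside the cell, 0 of 15 tested cytoplasmic transducers were called by edgeR (median log2 0.01). Without line 1, 0 were called higher and 1 lower (Frat2, a partner of GSK-3), beside 2.51% and 2.06% of all genes. Over all lines Frat2 lay at a log2 value of -0.55 (SE 0.08, adjusted p = 0.144 in edgeR), while Dvl3, Axin1 and Csnk1e lay at 0.24, -0.11 and 0.12. Among target genes and factors, 0 of 7 tested were called (median 0.47). Without line 1, 3 of 7 were called higher (Axin2, Tcf7 and Sp5) and 0 lower, beside 2.51% and 2.06% of all genes. Sp5 was tested only without line 1, where Tcf7l1 was not. Sp5 had at most 1 read in each ED-USP21 library, so it was tested through the WT-USP21 libraries alone. Axin2, the feedback inhibitor used as a readout of the beta-catenin branch, stood at 2.09, 15.1, 10.8 and 20.01 CPM with WT-USP21 and at 0.308, 0.054, 0.118 and 0.0386 CPM with ED-USP21. Its WT-USP21 libraries were all above its ED-USP21 libraries, as in 1.07% of all genes, and least so in line 1 (log2 6.15, SE 1.03, edgeR adjusted p = 0.197). Tcf7 had a log2 difference of 1.2 (SE 0.15), Nkd2 one of 0.74 (SE 0.32) and Ccnd1 one of 0.15 (SE 0.09). Of 13 tested planar cell polarity genes (median -0.00), 1 rose with WT-USP21: Prickle1, at 5.03, 12.9, 12.2 and 13.8 CPM against 1.70, 4.02, 4.11 and 3.38 CPM (log2 1.71, SE 0.13, edgeR adjusted p = 0.0416). Of all genes the same test called 0.0247% higher. The Prickle1 call was lost with no block, with a filter at a mean of at least 1 CPM, and without line 2, line 3 or line 4. In each of these settings edgeR called 0 genes. Vangl2 had a log2 difference of 0.59 (SE 0.18), Vangl1 one of -0.20 (SE 0.06) and Daam1 one of -0.20 (SE 0.07).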

How the data were processed

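RNA sequencing was analysed in 8 libraries of mouse PDAC lines. The authors deposited raw read counts, whole numbers with no normalisation, under Ensembl identifiers and symbols for 39179 genes, of which 37607 are in the gene name table used here. The submitters' processing notes name STAR, TopHat, CASAVA, HTSeq and Cufflinks and the build mm9, without versions or roles. Reads in no gene (11.4% to 20.6% of the counts) stayed out of totals and tests. Whether counting used strand is unknown from these sources, and overlapping or antisense genes cannot be separated.

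From the counts, edgeR 4.0.16 in R 4.3.3 gave log2 differences (WT-USP21 minus ED-USP21) and quasi-likelihood p-values with TMM scaling, filterByExpr (minimum count 10) and the line as a block, since the question is the difference within lines. Each SE is the absolute log2 difference over the square root of F. Benjamini-Hochberg adjustment ran over all 16192 genes tested, with calls under 0.05. Within-line differences used log2 CPM with a prior count of 2. Levels per kb used merged exon lengths of GENCODE M21 (GRCm38), a later build than that of the counts. Line terms and the interaction with the background label were tested in the same way, and Usp21 with an exact sign-flip test. Alternatives were no block, DESeq2 1.42.0 with and without the block, limma-trend (limma 3.58.1), other scalings and filters, a robust spread and each line left out; DESeq2 without line 1 was added after the data were seen. The line numbers pair libraries because both come from the same line; deviations from the group means correlated within lines 1 to 4 at 0.77, 0.503, 0.468 and 0.347. The scripts were tested on simulated data.

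The members, the gene lists and the rule for naming genes were chosen with earlier results of these data known. The rule gave values in every library for the 12 tested members with the smallest p and the most abundant member of each family, and named up to 4 genes of each neighbouring list by smallest p; the other genes named as called by a test are all those that the test called. Some items, among them 1 allele and 1 marker gene, are not reported here.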

Additional observations from a re-analysis of the deposited data

Results flagged for a closer look

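Among 81 groups of 4 values examined (the CPM of each tested member per construct and its differences over the lines), 13 had 1 value far from the other 3, where chance gives about 1 in 20, or 4.05. The groups are not independent, since differences come from the same CPM values and all groups share the 8 libraries. How far a count may stray from 4.05 by chance is therefore not known. In 12 of the 13 the value apart was that of line 1. The exception was Wnt5a, whose WT-USP21 library of line 2 was lowest at 1.91 CPM. For Porcn, the ED-USP21 library of line 1 was lowest at 38.1 CPM and the log2 difference of line 1 highest at 1.65. Fzd2 was highest in the ED-USP21 library of line 1 at 30.6 CPM, and Wnt9a had its lowest log2 difference there at 0.12. Ror2 was lowest in line 1 with both constructs, at 0.0326 and 0.0578 CPM. Fzd1 at 17.1 CPM and Fzd8 at 2.23 CPM were lowest in the ED-USP21 library of that line. Fzd4 had its highest log2 difference in line 1 at 1.36, and Sfrp1 its lowest at 0.58, from 1 read against 0. Sfrp4 was highest in the ED-USP21 library of line 1 at 0.799 CPM, with a log2 difference of -2.33.

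Ror2 had opposite signs by background label, with a mean log2 difference of -0.362 in lines 1 and 2 and of 0.399 in lines 3 and 4. It was picked out by these signs; the edgeR interaction test gave it an adjusted p of 0.99. Both its libraries of line 1 held 6 reads or fewer.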

How the results depend on the processing

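The construct comparison depended on the test and on line 1. Against 4 genes called by edgeR with the replicate block, 0 were called with no replicate block, 407 by DESeq2 with the block, 60 by DESeq2 without it, 58 with no filter, 0 with a mean of at least 1 CPM, 1 with a robust spread, and 0 to 746 with a line left out (746 without line 1). DESeq2 without line 1 called 1501. Members called higher were 0, against 5 by DESeq2 with the block, 1 by DESeq2 without it (Wnt5a), 1 with no filter (Sfrp1), 0 to 6 with a line left out and 8 by DESeq2 without line 1. Members called lower were 0, against 1, 0 to 1 and 4 by DESeq2 with the block, with a line left out and by DESeq2 without line 1. The 4 were Wnt4, Fzd1, Fzd5 and Porcn. The median of the tested members moved from 0.216 to 0.362 with no filter, which adds 10 low members. Genes differing by line went from 4019 to 6534 with DESeq2 and to between 65 and 3261 with a line left out, and members from 10 to between 1 and 10, the least in each case without line 1. Interaction calls went from 0 to 7 genes with DESeq2. For the 14 members named by the rule, 0 of the 191 alternative values reversed direction; 23 crossed the threshold, and 168 did not. Causes of these shifts were not tested.

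Members under about 0.1 CPM could not be tested at this depth, and a low count does not show absence. With 4 lines, of which lines 2 to 4 are not shown to be independent, small differences can be missed.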

Other observations

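Several Wnt genes lie next to each other in the genome (RefSeq gene table), and the members of each such pair differed in level. Of 4 neighbouring pairs among the members, Wnt10a was expressed while its neighbour Wnt6 had 17 reads in all 8 libraries. Wnt9a was expressed while Wnt3a had 0 reads. Wnt10b was tested while Wnt1 had 1 read. In the fourth pair, Wnt3 had 29 reads and Wnt9b 2.

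Wnt6 and Wnt10a both had most of their reads in line 1. Its WT-USP21 library held 10 reads of Wnt6 and its ED-USP21 library 4, and each other library 0 to 2. Wnt10a stood at 10.9 and 28.6 CPM in line 1 and at 0.378 to 3.59 CPM elsewhere.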
